A study of Rattus norvegicus with 47 samples.

Results

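The genes described here encode drug and organic ion transporters of rat liver. They are the genes with a single symbol in the probe annotation that begins with Abca, Abcb, Abcc, Abcd, Abcg, Slco or Slc22a, leaving out Abcc3 and Abcb11, with the brightest probe set of each gene taken within each kind of fixation. The rule gave 60 of the 14217 genes tested. They comprised 8 Abca, 6 Abcb, 8 Abcc, 3 Abcd, 6 Abcg, 13 Slco and 16 Slc22a genes, so that 31 belonged to the ATP-binding cassette (ABC) superfamily and 29 to the solute carrier (SLC) superfamily. The rule reads gene symbols alone, and it was set with earlier results of these data known.

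Male Wistar rats had received a single dose of 250 mg/kg N-nitrosomorpholine (NNM, a liver carcinogen) at 4 weeks of age. After 3 weeks of recovery they were given phenobarbital (PB, a barbiturate that induces liver enzymes and promotes liver tumours) at 50 mg/kg/day for up to 17 months. Lesions and surrounding liver therefore shared the NNM and PB exposure, and every group came from treated rats. The frozen samples were 5 nodules (called minitumors in the tissue label) from 3 rats, 6 adenomas from 2 rats, 4 carcinomas without a mutation label from 3 rats, 4 carcinomas labelled bCat from 3 rats and 7 samples of surrounding liver from 5 rats. The formalin-fixed, paraffin-embedded (FFPE) samples had been taken by laser capture microdissection and were 9 foci from 3 rats, 5 adenomas from 3 rats and 4 samples of surrounding liver from 4 rats. By their titles and control-set labels, the 44 grouped arrays came from 7 rats in all, so several lesions shared an animal. One array labelled bCat (replicate 1) carried no mutation in its tissue label, and one FFPE adenoma array (replicate 4) was called surrounding tissue there. Each was kept in its labelled group, and values without it are given where a call was lost. Calls gained without it are not named. Another 3 arrays labelled C43 normal were left out of all comparisons.

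Hepatocytes take up bile salts, hormones and drugs from sinusoidal blood through organic anion transporting polypeptides (the Slco genes) and organic anion and cation transporters (the Slc22a genes). ABC pumps then use ATP to drive conjugates and lipids across the canalicular membrane into bile or back across the basolateral membrane into blood, and other ABC proteins work in peroxisomes, mitochondria or the endolysosomal system. Constitutive androstane receptor and pregnane X receptor, which mediate the response to phenobarbital, are known regulators of several of these carriers in rodent liver.

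Values are deposited log2 probe set signals, and a change is a lesion minus surrounding difference on that log2 scale from a limma fit with the rat as a block. Of the 600 fitted member changes (60 genes, 10 comparisons), 67 had the opposite sign to the plain difference of the group means, and none of these was called. A gene was called when its Benjamini-Hochberg adjusted p over all 14217 genes was under 0.05. Results of fits that left out 1 array are given only for arrays of the groups compared, not for arrays of other groups. Array medians lay between 5.49 and 5.59 in frozen and between 5.58 and 5.68 in FFPE samples. The mean of 10 measured hepatocyte markers lay between 12.89 and 13.91 on every grouped frozen array, with 13.30 to 13.70 in adenomas, 13.42 to 13.50 in carcinomas, 12.89 to 13.67 in bCat-labelled carcinomas and 13.67 to 13.91 in surrounding liver. Of these 10 markers, 5 fell and 1 rose in adenomas, 3 fell in carcinomas and 4 fell in bCat-labelled carcinomas, while 3, 3 and 5 of 9 macrophage markers fell in the same order of groups. Their part in the transporter changes was not tested. In bulk tissue, fewer cells of a type and less RNA per cell cannot be told apart.

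Upstream sequences are shown for Slco1a1, Slco1a4 and Slco1b2, which fell in adenomas and lie close together on chromosome 4, and for Abcc2 and Slc22a8, which rose in bCat-labelled carcinomas. They were picked with these changes known. Each run holds the 250 bases before the start site of the RefSeq promoter table (assembly GRCr8), 5′ to 3′ on the gene's strand. That site is the outer end of the annotated gene for Slco1a4 and Abcc2, and lies inside the annotated gene by 7 bases for Slco1b2, 35 bases for Slco1a1 and 1778 bases for Slc22a8, so that the Slc22a8 window falls wholly within its annotated gene. They are Slco1a1 at chr4:176681993-176682242 (minus strand), Slco1a4 at chr4:176495847-176496096 (minus strand), Slco1b2 at chr4:176282334-176282583 (plus strand), Abcc2 at chr1:252613625-252613874 (plus strand) and Slc22a8 at chr1:214927034-214927283 (plus strand). Capitals mark the HNF1 core GTTAAT on either strand (ATTAAC where it is on the other strand), HNF1 being a hepatocyte transcription factor.
Slco1a1: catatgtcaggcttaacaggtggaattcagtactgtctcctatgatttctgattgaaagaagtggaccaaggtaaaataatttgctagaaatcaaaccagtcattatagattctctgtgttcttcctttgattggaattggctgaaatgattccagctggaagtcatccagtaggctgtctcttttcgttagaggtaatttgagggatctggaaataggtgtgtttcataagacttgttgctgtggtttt
Slco1a4: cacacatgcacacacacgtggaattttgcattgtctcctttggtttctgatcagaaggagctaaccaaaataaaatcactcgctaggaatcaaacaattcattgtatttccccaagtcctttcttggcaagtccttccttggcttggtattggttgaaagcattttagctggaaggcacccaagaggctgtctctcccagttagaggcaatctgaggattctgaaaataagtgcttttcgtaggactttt
Slco1b2: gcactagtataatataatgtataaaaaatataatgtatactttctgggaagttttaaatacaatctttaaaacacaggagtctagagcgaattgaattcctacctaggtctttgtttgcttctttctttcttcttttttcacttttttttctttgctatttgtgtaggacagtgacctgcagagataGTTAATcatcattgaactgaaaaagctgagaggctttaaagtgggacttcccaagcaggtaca
Abcc2: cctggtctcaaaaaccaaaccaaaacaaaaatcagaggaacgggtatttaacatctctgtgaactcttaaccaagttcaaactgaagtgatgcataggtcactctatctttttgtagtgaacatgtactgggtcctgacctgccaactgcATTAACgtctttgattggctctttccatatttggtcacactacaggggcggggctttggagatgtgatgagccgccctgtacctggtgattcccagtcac
Slc22a8: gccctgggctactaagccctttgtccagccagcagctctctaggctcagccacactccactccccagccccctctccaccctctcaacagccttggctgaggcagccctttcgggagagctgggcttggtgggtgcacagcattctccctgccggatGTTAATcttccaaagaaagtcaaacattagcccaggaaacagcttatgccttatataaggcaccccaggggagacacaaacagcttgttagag
Slco1a1 and Slco1a4 were 66.4% identical over 265 aligned columns, against 47.6% over 275 columns for Slco1a1 and Slco1b2. The core began 63 bases before this start site in Slco1b2, 100 bases before it in Abcc2 and 93 bases before it in Slc22a8, and these letters are not in the Slco1a1 and Slco1a4 windows. Of the 53 members with a listed promoter, 5 held it (9.43%), against 6.45% of all 33469 promoters. The antioxidant response element core TGACNNNGC was in 4 of the 53 (7.55%) against 10.1% of all promoters, the C/EBP palindrome TTGCNNAA in 5 (9.43%) against 9.22%, and the nuclear receptor core AGGTCA in 9 (17.0%) against 14.1%, each searched on both strands. Matches are descriptions of these windows.

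In frozen adenomas and carcinomas more transporters fell than rose, and the largest falls were those of Slco genes. In frozen adenomas 4 members rose and 13 fell, where 25.0% of all genes were called (15.4% rose and 9.57% fell). In carcinomas without a mutation label none rose and 13 fell, where 11.4% of all genes were called (4.48% rose and 6.91% fell), and in bCat-labelled carcinomas 3 rose and 13 fell, where 17.3% were called (7.74% rose and 9.58% fell). In nodules limma called no member, with 7 members at an unadjusted p under 0.05, and 0.225% of all genes were called (0.190% rose and 0.0352% fell). The unadjusted count and the called share are unlike measures and cannot be compared. In FFPE foci 3 members rose and 1 fell, where 3.18% of all genes were called (1.81% rose and 1.36% fell), and in FFPE adenomas 1 rose and 1 fell, where 2.16% were called (1.29% rose and 0.872% fell). Of the 60 members, 25 were called in at least 1 comparison and 35 in none. The matching share of all genes is not given here, so these counts do not set the transporters apart from other genes.

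**Figure D1:**
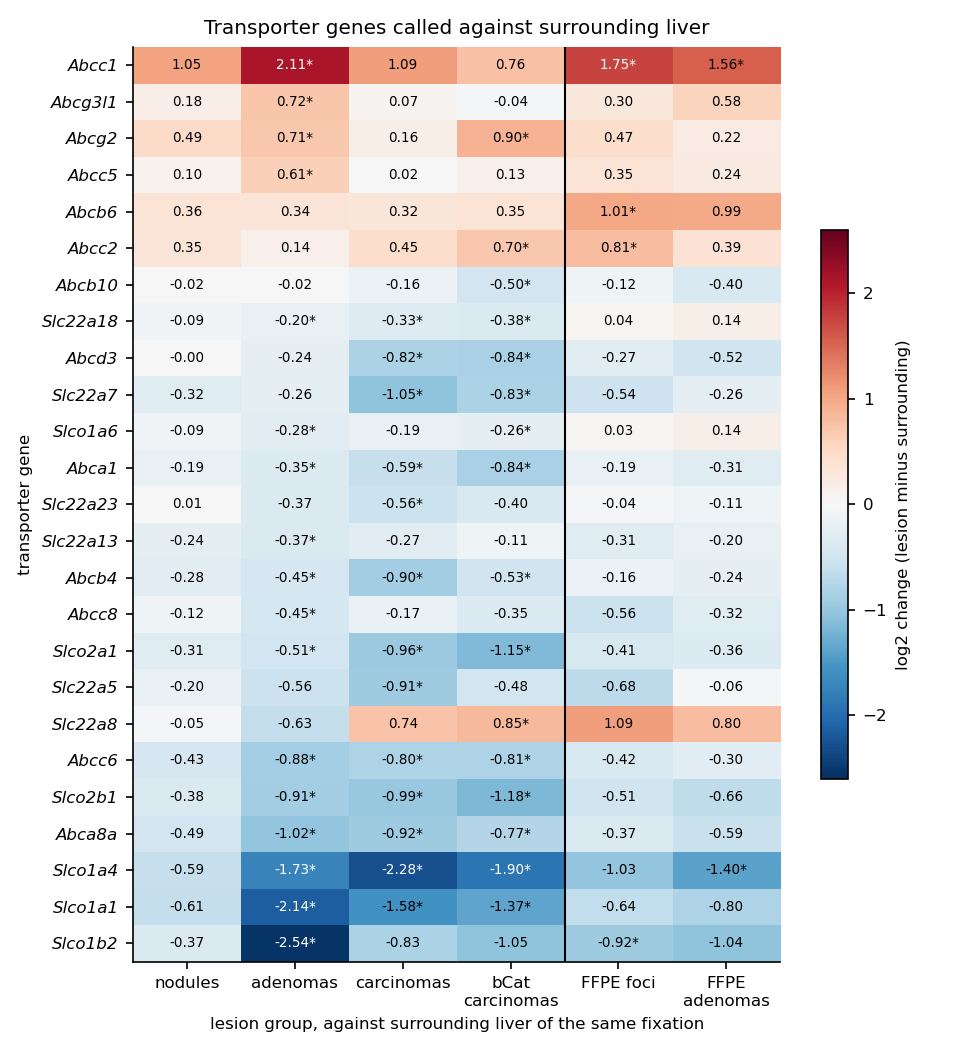
Fitted log2 changes (lesion minus surrounding liver of the same fixation; colour scale and printed values) of the transporter genes called in at least 1 of 6 comparisons, with called changes starred. Slco1b2, Slco1a1 and Slco1a4 have the lowest values in frozen adenomas, at -2.54, -2.14 and -1.73, and Abcc1 the highest, at 2.11.

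By superfamily, the 29 SLC genes included 8 that fell and none that rose in adenomas, 8 that fell and none that rose in carcinomas, and 7 that fell and 1 that rose in bCat-labelled carcinomas. The 31 ABC genes included 5 that fell and 4 that rose in adenomas, 5 that fell and none that rose in carcinomas, and 6 that fell and 2 that rose in bCat-labelled carcinomas. The median change of the 13 Slco genes was -0.28, -0.30 and -0.27 in adenomas, carcinomas and bCat-labelled carcinomas, beside 0.02, -0.02 and -0.01 for all genes. The 6 Abcg genes had medians of 0.66, 0.07 and 0.28 in the same order of groups, and the 16 Slc22a genes had -0.21, -0.06 and -0.09. These 3 comparisons share their 7 surrounding samples.

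**Figure D2:**
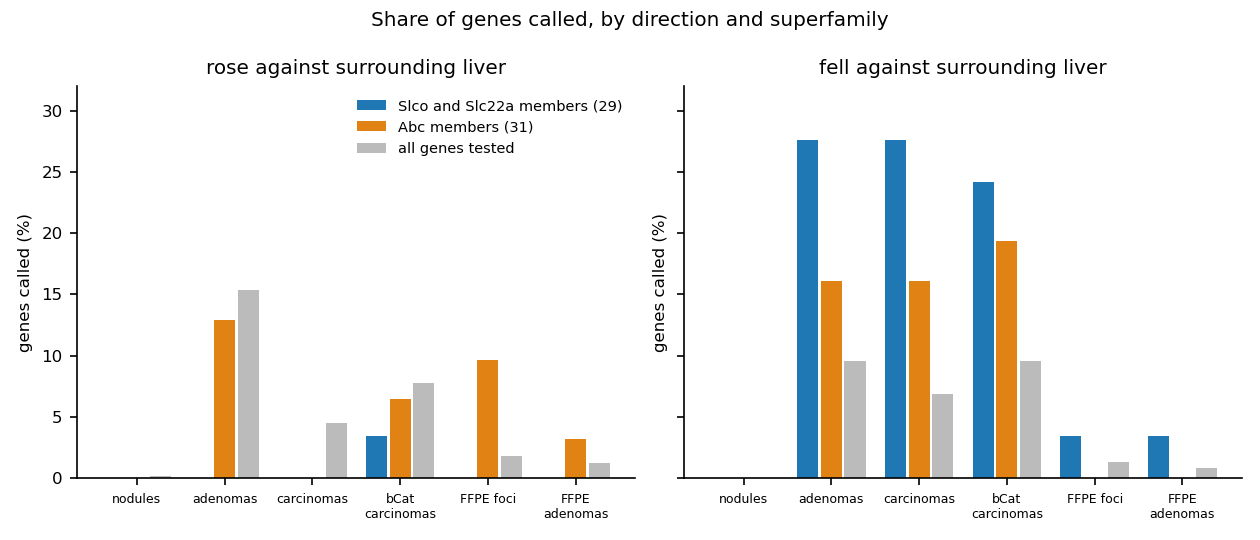
Percentage of genes called as higher (left panel) or lower (right panel) than surrounding liver in each lesion group, for the 29 Slco and Slc22a genes, the 31 Abc genes and all 14217 genes tested. In frozen adenomas no Slco or Slc22a gene rose, against 15.4% of all genes.

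Slco1a1 encodes Oatp1a1, a sinusoidal carrier of bile salts and steroid conjugates. It measured 5.81, 7.76 and 8.93 (lowest, median and highest) in the 6 adenomas, 8.60, 7.64, 7.08 and 8.49 in the 4 carcinomas, 8.22, 7.77, 8.54 and 8.88 in the 4 bCat-labelled carcinomas, and 9.04, 9.75 and 10.04 (lowest, median and highest) in surrounding liver. Every adenoma and carcinoma array was below every surrounding array. The nodules, at 9.35, 8.80, 8.63, 8.52 and 9.32, overlapped surrounding liver and were not called. The changes were -2.14 ± 0.40 in adenomas (SE, limma adjusted p = 0.000708), -1.58 ± 0.43 in carcinomas (adjusted p = 0.0205) and -1.37 ± 0.41 in bCat-labelled carcinomas (adjusted p = 0.0261). The carcinoma call was lost without surrounding replicate 5 (-1.28), carcinoma replicate 3 (-1.42) or carcinoma replicate 4 (-1.62). The bCat-labelled call was lost without surrounding replicate 5 (-1.16) or replicates 1, 2 or 3 of that group (-1.32, -1.34 and -1.34), replicate 1 being the array whose labels disagree.

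Slco1a4 encodes Oatp1a4, a sinusoidal carrier that also takes up cardiac glycosides in rats. It measured 8.72, 10.79 and 11.46 (lowest, median and highest) in adenomas, 9.85, 9.61, 9.15 and 10.33 in carcinomas, 10.89, 9.75, 9.30 and 11.15 in bCat-labelled carcinomas, and 11.86, 12.24 and 12.46 (lowest, median and highest) in surrounding liver. None of these lesion arrays reached the lowest surrounding value. The carcinoma change was -2.28 ± 0.40 (SE, limma adjusted p = 0.00112), 0.21 of the surrounding signal. It was -1.73 ± 0.37 in adenomas (adjusted p = 0.00208) and -1.90 ± 0.39 in bCat-labelled carcinomas (adjusted p = 0.00187). A second probe set of the gene gave plain differences of -2.41, -2.19 and -1.65 in adenomas, carcinomas and bCat-labelled carcinomas.

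Slco1b2 encodes Oatp1b2, the liver-specific uptake carrier for bile acids and bilirubin conjugates. Adenomas held 6.88, 9.30 and 10.52 (lowest, median and highest), and surrounding liver held 10.88, 11.32 and 11.51. The groups did not overlap, and the change was -2.54 ± 0.54 (SE, limma adjusted p = 0.002), 0.17 of the surrounding signal. Carcinomas measured 11.03, 9.86, 10.71 and 10.35 and bCat-labelled carcinomas 8.18, 10.67, 11.23 and 11.41, and neither group was called. The 8.18 belongs to the bCat-labelled array whose labels disagree. Adenoma replicate 3 had the lowest adenoma value of Slco1a1, Slco1a4 and Slco1b2, and was the lowest adenoma for 7 of the 13 members that fell. Its hepatocyte marker mean was 13.30, against 13.31 to 13.70 in the other adenomas, and the part of this in the result was not tested.

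**Figure D3:**
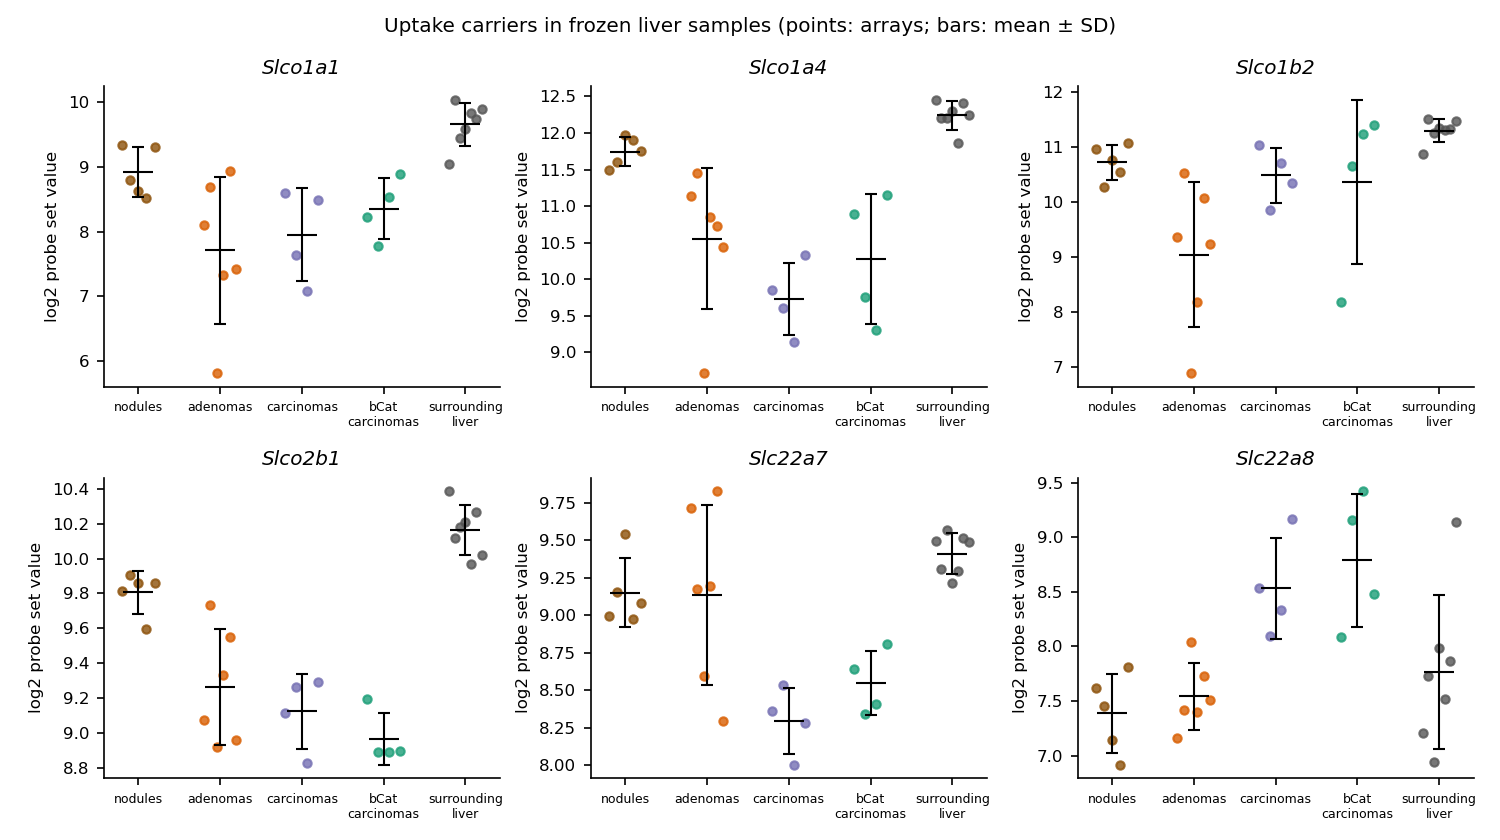
Log2 probe set values of 6 uptake carriers in the frozen groups, 1 point per array with the group mean and SD. Slco1a1 and Slco1a4 are lower in every adenoma and carcinoma array than in any surrounding sample. Slc22a8 is at 8.09 to 9.42 in the carcinoma groups and at 6.94 to 9.14 in surrounding liver.

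Slco2b1 encodes Oatp2b1, which carries sulfated steroids. It measured 8.92, 9.20 and 9.73 (lowest, median and highest) in adenomas, 9.11, 9.27, 8.83 and 9.29 in carcinomas, 9.19, 8.89, 8.90 and 8.90 in bCat-labelled carcinomas, and 9.97, 10.18 and 10.38 in surrounding liver. The groups did not overlap, and the changes were -0.91 ± 0.14, -0.99 ± 0.15 and -1.18 ± 0.14 (SE, limma adjusted p = 0.000107, 0.000385 and 2.07e-05). A dimmer second probe set gave plain differences of -1.48, -0.19 and -0.30 in the same groups.

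Slco2a1, the prostaglandin transporter, measured 10.54, 10.95 and 11.47 (lowest, median and highest) in adenomas, 10.87, 10.72, 10.41 and 10.42 in carcinomas, 10.84, 10.26, 10.41 and 10.24 in bCat-labelled carcinomas, and 11.41, 11.62 and 11.79 in surrounding liver. Both carcinoma groups lay wholly below surrounding liver. Its changes were -0.51 ± 0.13, -0.96 ± 0.14 and -1.15 ± 0.13 (SE, limma adjusted p = 0.00659, 0.00031 and 1.6e-05). Its second probe set gave plain differences of -1.51, 0.02 and -0.08, so both carcinoma results rest on 1 probe set. With the mean of the probe sets the carcinoma call was lost (-0.57). The endothelial list, marking a cell type that also carries this gene, had 0 of 8 measured markers called in adenomas and in carcinomas and 1 (Kdr, which fell) in bCat-labelled carcinomas, with array means of 7.58 to 8.63, 7.77 to 8.26, 7.63 to 8.24 and, in surrounding liver, 8.11 to 8.34. Their part in the result was not tested.

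Among the Slc22a genes, Slc22a7 (Oat2, an organic anion transporter of hepatocytes) fell in both carcinoma groups. It measured 8.36, 8.53, 8.0 and 8.28 in carcinomas and 8.64, 8.34, 8.41 and 8.81 in bCat-labelled carcinomas, against 9.21, 9.49 and 9.57 (lowest, median and highest) in surrounding liver, with no overlap. The changes were -1.05 ± 0.23 and -0.83 ± 0.22 (SE, limma adjusted p = 0.00594 and 0.0138). The bCat-labelled call was lost without replicate 3 of that group (-0.77). Adenomas ranged over 8.30, 9.19 and 9.83 and were not called (-0.26).

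Slc22a5 (Octn2, the carnitine carrier) measured 7.25, 6.79, 7.70 and 7.17 in carcinomas, against 7.66, 8.27 and 9.05 in surrounding liver, a change of -0.91 ± 0.28 (SE, limma adjusted p = 0.0366). This call was lost in 7 fits that left out 1 array: surrounding replicates 1, 3, 4 and 6 (-0.82, -0.89, -0.86 and -0.92) and carcinoma replicates 1, 2 and 4 (-0.99, -0.80 and -0.79). Slc22a18 fell by 0.20, 0.33 and 0.38 in adenomas, carcinomas and bCat-labelled carcinomas (limma adjusted p = 0.0476, 0.00853 and 0.00176). The adenoma call was lost in 11 of the 13 fits that left out 1 array (-0.16 to -0.23), and the carcinoma call without carcinoma replicate 1 (-0.27). Slc22a23, whose substrates are not settled, fell by 0.56 in carcinomas (adjusted p = 0.0416), but its second probe set gave a plain difference of 0.51. With the mean of the probe sets its change was -0.17 (adjusted p = 0.607), and the call was lost in 8 of the 11 fits that left out 1 array (-0.43 to -0.69). The remaining called Slc22a and Slco genes, named after their values were seen, were Slc22a13, which fell by 0.37 in adenomas (adjusted p = 0.0168), and Slco1a6, which fell by 0.28 in adenomas and 0.26 in bCat-labelled carcinomas (adjusted p = 0.00696 and 0.0185). Both lay in the lowest 25% of genes by mean signal (below 4.94).

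Slc22a8 (Oat3, an organic anion transporter known mainly from kidney) was called higher in unlabelled carcinomas than in adenomas. It was also called higher in bCat-labelled carcinomas than in surrounding liver. Unlabelled carcinomas were not called against surrounding liver (means 8.53 and 7.77). It measured 8.54, 8.09, 8.33 and 9.17 in carcinomas and 8.09, 9.16, 9.42 and 8.48 in bCat-labelled carcinomas, against 7.16, 7.46 and 8.04 (lowest, median and highest) in adenomas and 6.94, 7.73 and 9.14 in surrounding liver. Both carcinoma groups lay above all adenomas, while surrounding replicate 7, at 9.14, overlapped them. By the labels that sample is the control of carcinoma replicate 4 (9.17) and of bCat-labelled replicates 3 and 4 (9.42 and 8.48). The carcinoma minus adenoma change was 1.36 ± 0.30 (SE, limma adjusted p = 0.0318), the 1 member called in that comparison, in which 2.95% of all genes were called (1.17% rose and 1.78% fell). Only 1 rat held both adenomas and unlabelled carcinomas, so that change rests in large part on links through other groups. The bCat-labelled change against surrounding liver was 0.85 ± 0.25 (adjusted p = 0.0239). Its second, dim probe set gave plain differences of -0.69 for carcinomas minus adenomas and 0.06 for bCat-labelled carcinomas minus surrounding liver. With the mean of the probe sets both calls were lost, at 0.82 (adjusted p = 0.141) and 0.39 (adjusted p = 0.36). The first call was lost without carcinoma replicate 1 (1.22), carcinoma replicate 4 (1.25) or adenoma replicate 6 (1.32). The second was lost without surrounding replicate 5 (0.79), surrounding replicate 6 (0.75), or replicate 2 (0.58) or 3 (0.74) of the bCat-labelled group.

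Among the canalicular pumps, no common direction was seen. Of the 6 measured genes of that list, 1 rose and 1 fell in adenomas, 1 fell in carcinomas, and 2 rose and 1 fell in bCat-labelled carcinomas. In the same order of groups 25.0%, 11.4% and 17.3% of all genes were called, and so few genes cannot be set apart from these shares. Abcc2 (Mrp2, which exports conjugated bilirubin and glutathione conjugates into bile) measured 11.71, 12.22, 12.10 and 11.54 in bCat-labelled carcinomas, against 10.94, 11.11 and 11.55 (lowest, median and highest) in surrounding liver. The ranges touched at 11.54 and 11.55, and the change was 0.70 ± 0.20 (SE, limma adjusted p = 0.0218), lost without replicate 2 (0.56) or 3 (0.60) of that group. Carcinomas without a mutation label held 12.15, 11.08, 11.98 and 11.44 and were not called (0.45 ± 0.21).

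Abcg2 (Bcrp, an exporter of urate and sulfate conjugates) measured 6.45, 6.76 and 7.50 (lowest, median and highest) in adenomas and 6.74, 7.79, 6.42 and 7.38 in bCat-labelled carcinomas, against 5.75, 6.32 and 6.69 in surrounding liver. The groups overlapped. The changes were 0.71 ± 0.25 in adenomas (SE, limma adjusted p = 0.0446) and 0.90 ± 0.26 in bCat-labelled carcinomas (adjusted p = 0.0206). The adenoma call was lost in 11 of the 13 fits that left out 1 array (0.59 to 0.80), all but those without adenoma replicate 1 or 3. The bCat-labelled call was lost without replicate 2 (0.66) or 4 (0.76) of that group.

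Abcb4 (Mdr2, the flippase that delivers phosphatidylcholine to bile) measured 7.64, 7.52, 7.58 and 7.72 in carcinomas, 8.27, 7.83, 7.86 and 8.15 in bCat-labelled carcinomas and 7.62, 7.97 and 8.63 (lowest, median and highest) in adenomas, against 8.37, 8.47 and 8.79 in surrounding liver. Both carcinoma groups were below every surrounding sample. The changes were -0.90 ± 0.15, -0.53 ± 0.14 and -0.45 ± 0.14 in that order (SE, limma adjusted p = 0.000712, 0.0133 and 0.0217). The adenoma call was lost without surrounding replicate 4 (-0.35) or adenoma replicate 6 (-0.36), and the bCat-labelled call without replicate 3 of that group (-0.45). Abcb1a (a P-glycoprotein, the multidrug exporter) averaged 8.29 ± 0.55 in adenomas (SD, n = 6) and 8.32 ± 0.60 in surrounding liver (SD, n = 7). The fit with the rat as a block gave 0.48 ± 0.19 there, opposite in sign to these means, and it was not called (adjusted p = 0.0703). The sterol exporters Abcg5 and Abcg8, which work as a pair, were not called either. The bCat-labelled array whose labels disagree had the highest frozen value of each, 7.96 and 5.69, against at most 5.94 and 4.46 in the other bCat-labelled arrays.

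Among the basolateral and plasma membrane exporters, Abcc1 had the largest change upward. It encodes Mrp1, which exports glutathione conjugates and is low in normal hepatocytes. Adenomas measured 6.91, 7.69 and 9.54 (lowest, median and highest), and surrounding liver measured 5.47, 6.06 and 6.47. The groups did not overlap, and the change was 2.11 ± 0.36 (SE, limma adjusted p = 0.000299), a 4.33-fold higher signal. Nodules, at 7.51, 7.18, 6.95, 7.20 and 7.28, and carcinomas, at 7.42, 7.43, 7.25 and 6.99, also lay above every surrounding sample without being called (1.05 ± 0.36 and 1.09 in the fit). The bCat-labelled carcinomas ran over 7.81, 7.17, 6.47 and 5.76 and overlapped surrounding liver. Beside it, the cholangiocyte list, of which 5 of 8 markers were measured, had 2 markers that rose in adenomas (Krt19 by 4.37 and Epcam by 1.40), with array means of 6.51 to 9.11 in adenomas against 5.59 to 6.36 in surrounding liver. The adenoma with the highest Abcc1, replicate 4, had a cholangiocyte mean of 7.30, and the highest mean, 9.11, belonged to replicate 2, whose Abcc1 was 6.96. The part of these cells in the result was not tested.

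Abcc5, a cyclic nucleotide exporter, measured 6.64, 7.15 and 7.84 (lowest, median and highest) in adenomas and 6.28, 6.53 and 6.88 in surrounding liver, a change of 0.61 ± 0.17 (SE, limma adjusted p = 0.0109), which was 0.42 and not called with the mean of its probe sets. Abcg3l1 rose by 0.72 in adenomas (adjusted p = 0.00381), with 6.03, 6.83 and 7.01 in adenomas and 5.71, 6.07 and 6.38 in surrounding liver. Abcc4 (Mrp4, a basolateral exporter of bile acids), named after its values were seen, was not called in any group. Its fitted changes in adenomas, carcinomas and bCat-labelled carcinomas were 0.77, 0.75 and 1.01 (adjusted p = 0.178, 0.31 and 0.109).

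Abcc6, whose loss in humans causes ectopic mineralization, measured 8.09, 9.09 and 9.50 (lowest, median and highest) in adenomas, 8.57, 8.79, 8.45 and 8.88 in carcinomas and 8.94, 8.19, 8.39 and 9.48 in bCat-labelled carcinomas, against 9.51, 9.61 and 9.84 in surrounding liver. No array of these lesion groups reached the surrounding range, and the changes were -0.88 ± 0.21, -0.80 ± 0.22 and -0.81 ± 0.21 (SE, limma adjusted p = 0.00378, 0.0222 and 0.0116). The carcinoma call was lost without carcinoma replicate 1 (-0.70) or 4 (-0.81) or surrounding replicate 5 (-0.72), and the bCat-labelled call without replicate 2 (-0.66) or 3 (-0.64) of that group. Abca1, which passes cholesterol to lipid-poor apolipoprotein, was at 8.60, 8.29, 8.12 and 8.57 in bCat-labelled carcinomas, against 8.99, 9.30 and 9.50 in surrounding liver. It changed by -0.84 ± 0.11 there (adjusted p = 5.33e-05), by -0.59 in carcinomas and by -0.35 in adenomas, and its 3 other probe sets had the same sign in all 3 groups. The adenoma call of Abca1 was lost without surrounding replicate 4 (-0.29) or adenoma replicate 6 (-0.31).

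Abca8a measured 9.16, 9.56 and 9.90 (lowest, median and highest) in adenomas and 10.24, 10.68 and 10.85 in surrounding liver, with no overlap. Its changes were -1.02 ± 0.14 in adenomas, -0.92 ± 0.15 in carcinomas and -0.77 ± 0.14 in bCat-labelled carcinomas (SE, limma adjusted p = 4.05e-05, 0.000618 and 0.000843), and all 3 calls held in every fit that left out 1 array. In nodules it stood at -0.49 ± 0.14 with an unadjusted p of 0.002 and an adjusted p of 0.127.

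**Figure D4:**
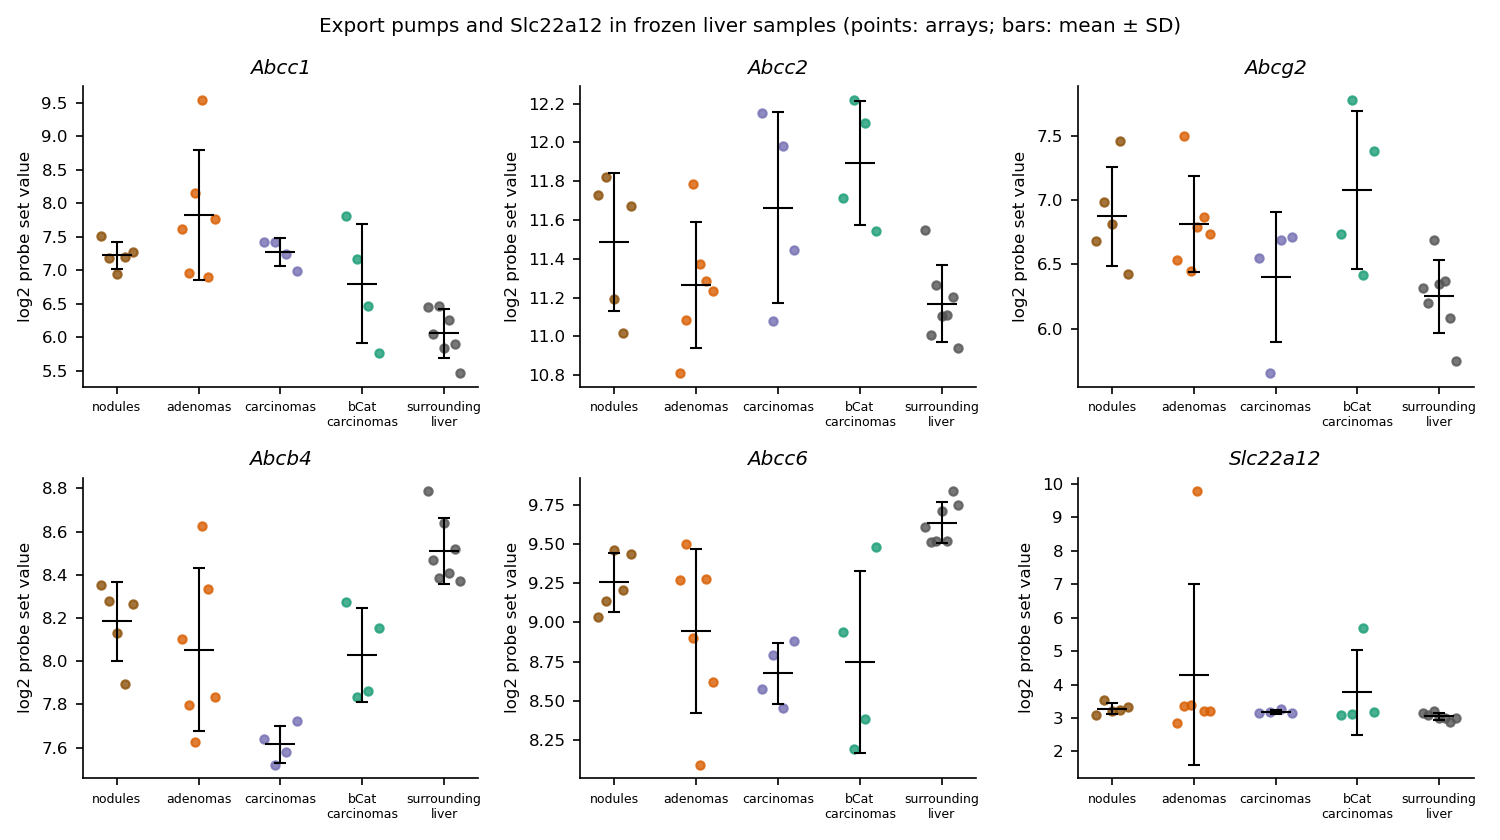
Log2 probe set values of 5 export pumps and of Slc22a12 in the frozen groups, 1 point per array with the group mean and SD. Abcc1 is above all surrounding samples in every nodule, adenoma and unlabelled carcinoma, and 1 adenoma holds Slc22a12 at 9.78.

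Of the 10 measured organelle transporters, 1 fell in carcinomas and 2 fell in bCat-labelled carcinomas, where 6.91% and 9.58% of all genes fell. Abcd3, which brings fatty acids into peroxisomes, measured 10.02, 9.84, 9.97 and 9.88 in carcinomas and 9.59, 10.13, 10.13 and 10.01 in bCat-labelled carcinomas, against 10.38, 10.83 and 11.23 (lowest, median and highest) in surrounding liver. Both groups lay below that range, with changes of -0.82 ± 0.15 and -0.84 ± 0.15 (SE, limma adjusted p = 0.00156 and 0.000491). Adenomas, at 10.44, 10.82 and 10.86, were not called. Abcb10, of the mitochondrial inner membrane, fell by 0.50 in bCat-labelled carcinomas (adjusted p = 0.0228), while its second probe set gave a plain difference of 0.07. With the mean of the probe sets the change was -0.24 and not called (adjusted p = 0.18). Without the array whose labels disagree that change was -0.43 and not called, and it was also lost without surrounding replicate 6 (-0.47) or replicates 2 or 3 of the group (-0.51 each). Of the channel-regulating genes, Abcc8 (the sulfonylurea receptor of pancreatic beta cells) fell by 0.45 in adenomas (adjusted p = 0.0494), a call lost in 9 of 13 fits that left out 1 array (-0.37 to -0.50).

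In the microdissected FFPE samples the largest called change concerned Abcc1. The fitted changes were less precise there, with a median SE over the members of 0.30 in foci and 0.33 in FFPE adenomas against 0.17 in frozen adenomas, so the numbers of calls in the 2 kinds of sample are not comparable. Abcc1 measured 7.28, 8.24 and 9.0 (lowest, median and highest) in foci and 8.08, 9.40, 7.34, 8.43 and 7.73 in FFPE adenomas, against 6.78, 6.71, 5.98 and 6.37 in FFPE surrounding liver. Every lesion array lay above every surrounding array. The changes were 1.75 ± 0.31 in foci (SE, limma adjusted p = 0.000906) and 1.56 ± 0.35 in FFPE adenomas (adjusted p = 0.0118). The adenoma call was lost without FFPE surrounding replicate 1 (1.48) or FFPE adenoma replicate 2 (1.28), and narrowly without the intensity trend (adjusted p = 0.0527). Of the 5 cholangiocyte markers, Krt19 and Epcam rose in FFPE adenomas (by 2.53 and 0.93) and none in foci, with array means of 5.52 to 6.80 in foci, 5.93 to 6.74 in FFPE adenomas and 5.18 to 5.59 in FFPE surrounding liver. Their part in the result was not tested.

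Abcc2 measured 11.38, 11.85 and 12.30 (lowest, median and highest) in foci, against 11.47, 11.19, 10.63 and 11.21 in FFPE surrounding liver, and its change of 0.81 ± 0.11 (SE, limma adjusted p = 2.99e-05) held in every fit that left out 1 array. Only the lowest focus and the highest surrounding sample overlapped. FFPE adenomas held 11.57 to 11.87 (lowest and highest), above all FFPE surrounding samples, and were not called. Abcb6, which is tied to porphyrin transport, measured 8.25, 8.73 and 9.30 in foci and 8.16, 7.98, 7.54 and 7.17 in FFPE surrounding liver, a change of 1.01 ± 0.25 (adjusted p = 0.017). It was lost without surrounding replicate 3 (0.89) or 4 (0.79), and without the intensity trend (adjusted p = 0.0599). FFPE adenomas held 8.51, 8.66, 9.01, 8.04 and 9.26, with an adjusted p of 0.0543.

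On the uptake side, Slco1b2 measured 9.25, 10.54 and 11.11 (lowest, median and highest) in foci, against 11.75, 12.21, 10.39 and 11.58 in FFPE surrounding liver. The change was -0.92 ± 0.26 (SE, limma adjusted p = 0.0447), with overlap at surrounding replicate 3, and it was lost in 11 of the 13 fits that left out 1 array (-0.82 to -1.06), all but those without foci replicate 5 or 8. It was also lost with the mean of the probe sets, without the intensity trend and without the rat block (adjusted p = 0.131, 0.176 and 0.0574). Slco1a4 measured 10.06, 8.68, 8.92, 7.48 and 8.33 in FFPE adenomas, against 10.35, 9.64, 9.63 and 10.49 in FFPE surrounding liver, a change of -1.40 ± 0.33 (adjusted p = 0.0182). The 7.48 belongs to the FFPE adenoma array whose labels disagree, without which the change was -1.21 and not called (adjusted p = 0.0544). The call was also lost without FFPE surrounding replicates 1, 2 or 4 (-1.46, -1.38 and -1.32) or FFPE adenoma replicates 2 or 5 (-1.28 and -1.15), and with the mean of the probe sets, without the intensity trend and without the rat block (adjusted p = 0.0652, 0.0971 and 0.082). The stellate cell list had 3 of 12 markers that rose in foci and 4 in FFPE adenomas (Col1a1, Col1a2, Col3a1 and Vim), with array means of 6.53 to 7.71 and 7.16 to 7.63 against 6.57 to 7.12 in FFPE surrounding liver, and 4 of 9 macrophage markers fell in foci. The hepatocyte marker mean was 12.97 to 13.25 in foci, below all FFPE surrounding samples, 13.21 to 13.40 in FFPE adenomas and 13.26 to 13.53 in FFPE surrounding liver, with 1 of the 10 markers rising (Apoa1) and 1 falling (Fgb) in each lesion group. Their part in these results was not tested. Slco1a1, Slco2a1 and Slco2b1, which fell in frozen adenomas and carcinomas, were called in neither FFPE lesion group. In foci, FFPE adenomas and FFPE surrounding liver, Slco1a1 averaged 7.59, 7.73 and 8.41. In the same order, Slco2a1 averaged 11.08, 11.26 and 11.54, and Slco2b1 averaged 9.26, 9.22 and 9.87.

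**Figure D5:**
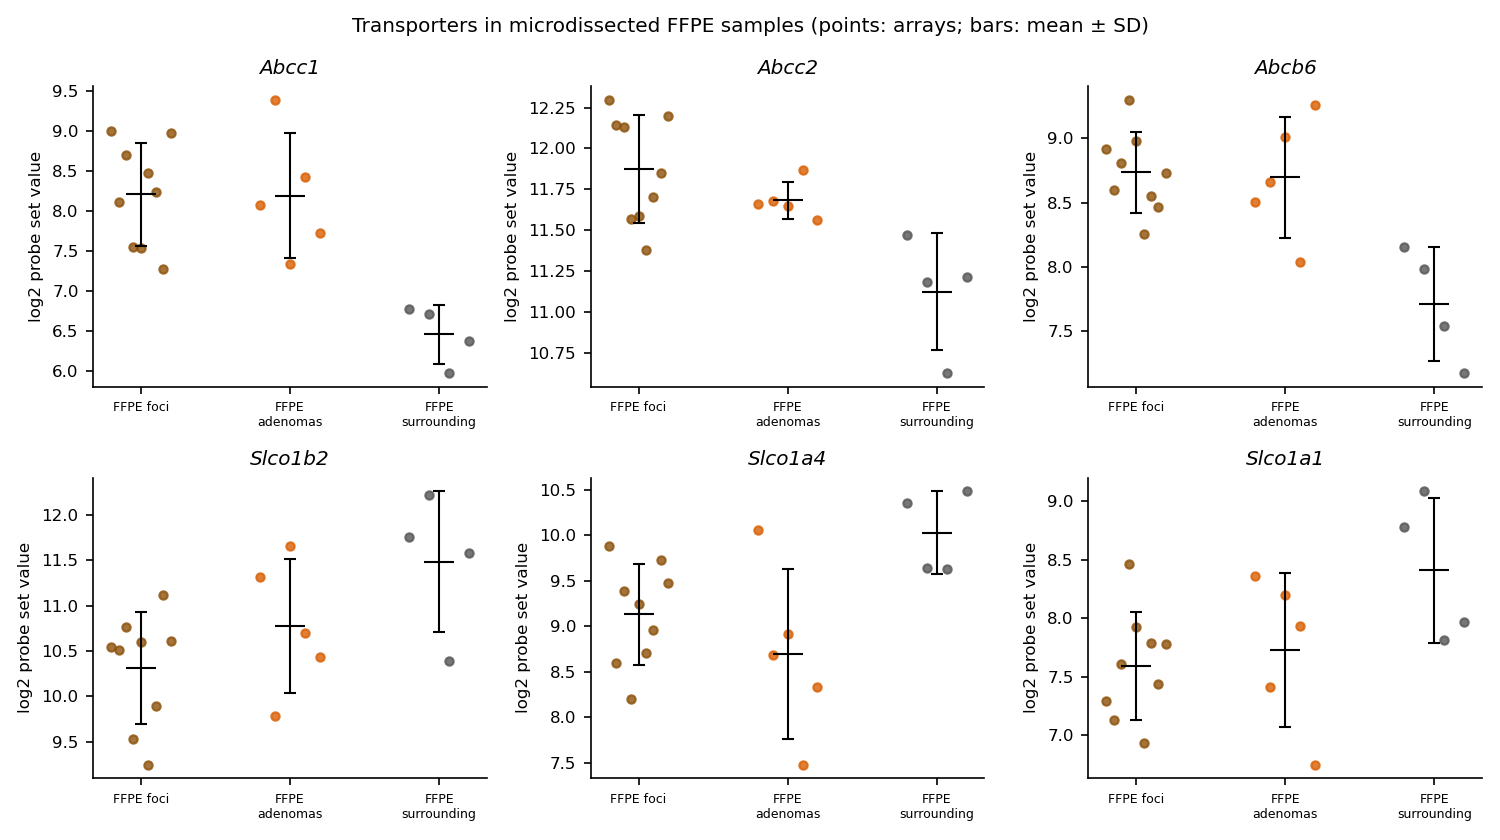
Log2 probe set values of 6 transporters in the microdissected FFPE groups, 1 point per array with the group mean and SD. All 9 foci and 5 FFPE adenomas have more Abcc1 signal than the 4 FFPE surrounding samples.

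The frozen and FFPE adenomas have separate arrays and surrounding samples. Rat 14 gave adenomas of both kinds, and the titles give frozen adenoma replicate 2 and FFPE adenoma replicate 3 the same tumour number, as they do for frozen adenoma replicate 3 and FFPE adenoma replicate 4, so the sets are not independent. Surrounding samples of both kinds came from rats 10 and 14. Over the 60 members, the fitted adenoma changes had the same sign in both for 48 genes, 29 below 0 and 19 above 0, and Pearson's r across genes was 0.70, as a description. Genes are not independent replicates.

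Comparisons between lesion groups gave few calls. Only 1 rat held both adenomas and nodules, and only 1 held both adenomas and unlabelled carcinomas. With the rat as a block, those changes rest in large part on links through other groups, such as surrounding liver. No member was called for adenomas against nodules, where 15 had an unadjusted p under 0.05 and 0% of all genes were called. There Slco1b2 stood at -2.17 ± 0.65 and Slco1a1 at -1.53 ± 0.48 (SE, limma adjusted p = 0.13 and 0.141). No member was called for bCat-labelled against unlabelled carcinomas, where 7 had an unadjusted p under 0.05 and 0% of all genes were called. The member with the smallest unadjusted p there, named after its values were seen, was Abcc9 (a potassium channel subunit of smooth muscle and pericytes), at 8.27, 7.91, 8.32 and 7.49 in bCat-labelled carcinomas and 7.98, 6.58, 6.90 and 6.41 in unlabelled carcinomas (1.05 ± 0.28, adjusted p = 0.494). No member was called for FFPE adenomas against foci, where 5 had an unadjusted p under 0.05 and 0% of all genes were called. In this paragraph the shares of all genes are after adjustment and the counts at an unadjusted p are not. The unadjusted share over all genes is not given here, so those counts do not set the members apart.

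The members never called, 35 in number, were 6 Abca, 3 Abcb, 3 Abcc, 2 Abcd, 4 Abcg, 7 Slco and 10 Slc22a genes. Their fitted changes against surrounding liver lay within 0.5 of 0 for 29 of the 35 in frozen adenomas, 33 in carcinomas, 29 in bCat-labelled carcinomas and 35 in nodules. Dim probe sets were frequent, with 17 of the 60 members in the lowest 25% of genes by mean signal in frozen and 18 in FFPE samples. Slc22a3 (an organic cation transporter), for example, measured 2.91 to 3.37 over nodules, adenomas and surrounding liver. Slc22a25, an organic anion transporter family member, measured 4.32, 5.54 and 6.55 (lowest, median and highest) in adenomas and 4.21, 4.66 and 6.39 in surrounding liver, and was not called in any group.

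Slc22a12, the renal urate exchanger, was singled out after its values were seen. It measured 9.78 in adenoma replicate 4, with 2.84 to 3.40 in the other adenomas, 3.08 to 3.52 in nodules, 3.15 to 3.27 in carcinomas and 2.88 to 3.21 in surrounding liver. The bCat-labelled carcinomas measured 3.09, 3.13, 5.69 and 3.17. Both high arrays came from rat 23, whose other adenomas, carcinoma and surrounding samples were not raised. The adenoma change was not called (1.33 ± 0.84, SE, limma adjusted p = 0.261).

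Among 10 measured carriers that work beside these transporters, 2 rose and 3 fell in adenomas, 1 rose and 2 fell in carcinomas, and 3 rose and 3 fell in bCat-labelled carcinomas. Of all genes, 15.4% rose and 9.57% fell in adenomas, 4.48% and 6.91% in carcinomas, and 7.74% and 9.58% in bCat-labelled carcinomas. Slc10a1 (Ntcp, the sodium-dependent bile salt uptake carrier) fell by 1.68, 1.63 and 1.94 in adenomas, carcinomas and bCat-labelled carcinomas, and Slc15a1, an intestinal peptide carrier, rose by 1.59 in adenomas (limma adjusted p = 5.63e-05). Among 8 measured membrane scaffold and trafficking genes, 3 rose and 1 fell in adenomas, beside the same shares of all genes. These were Ezr, which links membrane proteins to actin (2.10), Stx3 (1.11), Msn (0.77) and Pdzk1, the scaffold that Oatp1a1 binds in rodents (-0.85). Of the same 8 genes, 2 rose and 1 fell in carcinomas, and 2 rose and none fell in bCat-labelled carcinomas.

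Among 14 measured nuclear receptors and transcription factors, 6 fell and none rose in adenomas, where 9.57% of all genes fell and 15.4% rose. The largest changes were those of Cebpa (-1.48), Nr1i2, the pregnane X receptor (-0.96), Ppara (-0.85) and Rxra (-0.84). In bCat-labelled carcinomas 3 rose, namely Nr1i3, the constitutive androstane receptor (1.13), Ahr (1.03) and Ppara (0.65), while Nr1h4, the bile acid receptor, fell by 0.72. Of all genes 7.74% rose and 9.58% fell there. In carcinomas Nr1i3 rose by 0.57 and Nr1h4 fell by 0.50, where 4.48% of all genes rose and 6.91% fell. In foci 1 regulator rose, Nr1i3 by 0.72 (limma adjusted p = 0.0155), where 1.81% of all genes rose. In FFPE adenomas 1 fell, where 0.872% of all genes fell. For unlabelled carcinomas against adenomas 4 rose and none fell, where 1.17% of all genes rose and 1.78% fell. These are mRNA levels on the same arrays and share the surrounding samples with the transporter changes.

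The labels also tie each lesion to its own surrounding sample, and a fit with that control set as the block was run for the frozen arrays. It called 14 members in adenomas, 10 in carcinomas and 12 in bCat-labelled carcinomas, where 14.9%, 6.36% and 10.2% of all genes were called, against 25.0%, 11.4% and 17.3% with the rat as the block. Of these members, 13, 10 and 11 had been called with the rat block. The calls lost were Abcc8, Abcg2, Slc22a18 and Slco1a6 in adenomas (adjusted p = 0.11, 0.16, 0.294 and 0.0591), Abcc6, Slc22a23 and Slc22a5 in carcinomas (adjusted p = 0.0565, 0.262 and 0.26), and Abcb10, Abcb4, Abcg2, Slc22a7 and Slc22a8 in bCat-labelled carcinomas (adjusted p = 0.286, 0.155, 0.0553, 0.0696 and 0.28). The Slc22a8 call between carcinomas and adenomas was lost too (0.77, adjusted p = 0.929). Among the named adenoma calls, quantile normalization of the arrays ended those of Abcc8, Abcg2 and Slc22a18 (adjusted p = 0.0583, 0.0713 and 0.142), and in carcinomas that of Slc22a23 (adjusted p = 0.0542). The adenoma call of Abcg2 was also lost without the rat block (adjusted p = 0.0597), and that of Slc22a18 without the intensity trend (adjusted p = 0.0536).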

How the data were processed

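RNA of 47 rat liver samples was hybridised to single-colour Affymetrix arrays. The deposited table holds log2 probe set values made by the authors; no label or file header used here states how they were summarised and normalized, and array medians were nearly equal. Arrays give no read depth, so their number limits the precision. Of 31042 probe sets, 20826 had 1 gene symbol, 436 several and 9780 none. The brightest single-symbol probe set of each of 14217 genes was taken per fixation, over grouped arrays; 1727 genes used another probe set in FFPE samples, 5 of them transporters.

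limma 3.58.1 (R 4.3.3) fitted frozen and FFPE arrays apart with group and rat as terms, lmFit and eBayes with an intensity trend, on 17 and 12 residual degrees of freedom. Benjamini-Hochberg adjusted p-values over all genes were called under 0.05. The code was tested on simulated data with 200 changed genes. The rat comes from the titles and control-set labels. For surrounding replicate 5, carcinoma replicates 2 and 3 and bCat-labelled replicate 2, taken as 1 rat, the source animal label gave several numbers. The block rests on arrays sharing an animal; deviations from group means correlated at a median r of 0.13 within rats (50 pairs, 28 above 0.1) and -0.03 between rats in frozen samples, and 0.11 (23 pairs, 15 above 0.1) and -0.04 in FFPE samples. The labels do not say that lesions of 1 rat are independent, so p-values partly measure spread within animals.

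Alternatives were no block, a control-set block, no trend, quantile normalization, the mean of all probe sets, leaving out the lowest 25% of genes, the 2 arrays whose labels disagree, and each array in turn. The text names called members of role lists (uptake, canalicular, basolateral, organelle, channel and other), all measured uptake and canalicular members, up to 8 called members with the largest changes per comparison, and up to 4 called partner or regulator genes per list; Slc22a12, Slc22a13, Slco1a6, Abcc4 and Abcc9 were added after their values were seen. The members and lists were chosen with earlier results of these data known. All 60 members matched a RefSeq gene by identifier and symbol, and 53 had a promoter in the GRCr8 table. Genes whose probe set names several genes were not analysed here.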

Additional observations from a re-analysis of the deposited data

Results flagged for a closer look

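Over the 28 genes named by rule, 11 of 224 sets of values (4.91%) held an array that stood apart from the others of its group by Dixon's test, near the 1 in 20 that chance gives. Slc22a12 was added because of its values and held 3 more sets. It stood at 9.78 in adenoma replicate 4 (next 3.40) and 5.69 in bCat-labelled carcinoma replicate 3 (next 3.17), and at 3.27 in carcinoma replicate 3 on a narrow range. Among uptake carriers, Slco1a4 was 8.72 in adenoma replicate 3 (next 10.44) and 11.86 in surrounding replicate 5, Slco1b2 was 10.88 in surrounding replicate 1, Slco2b1 was 9.19 in bCat-labelled carcinoma replicate 1, and Slc22a3 was 2.91 in adenoma replicate 2 and 4.47 in foci replicate 5. Among ABC genes, Abcb6 was 8.43 in nodule replicate 4, Abcc6 was 9.02 in foci replicate 1, Abcg2 was 5.65 in carcinoma replicate 2, Abca8a was 10.24 in surrounding replicate 4, and Abcc5 was 5.99 in FFPE surrounding replicate 4.

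The 3 arrays labelled C43 normal, which enter no comparison, held some members above every surrounding sample of the same fixation. The single FFPE array gave 8.14 for Abcb10, against at most 7.29 in FFPE surrounding liver, 8.95 for Abcb1a against 7.55, 10.97 for Abcd3 against 10.26, and 5.52 for Abcg3l1 against 4.27. The lower of the frozen pair gave 6.45 for Abcg5, against at most 5.53 in frozen surrounding liver.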

How the results depend on the processing

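Counts of called members moved by over 1.5 times in these cases, and the cause was not tested. The share of all genes called in the same fit is given in brackets. Without a rat block (no pairing), 3 members were called for adenomas against nodules (3.07%; with it 0, 0%), 6 for carcinomas against adenomas (16.3%; with it 1, 2.95%) and 1 for FFPE adenomas (1.13%; with it 2, 2.16%). For the other comparisons the counts without it were 21 in adenomas (28.1%), 15 in carcinomas (16.9%), 18 in bCat-labelled carcinomas (17.8%), 3 in foci (2.19%) and 0 elsewhere. For carcinomas against adenomas 0 were called with the control-set block (0%) or the mean of all probe sets (3.96%). Without the intensity trend, 2 were called in foci (1.64%) and 0 in FFPE adenomas (0.964%). In FFPE adenomas 4 were called with quantile normalization (2.34%), 1 with the mean of all probe sets (1.61%), and 4 without the lowest 25% of genes (2.98%). Leaving out the array whose labels disagree moved the counts less. It gave 18 in bCat-labelled carcinomas (16.3%; with it 16, 17.3%) and 2 in FFPE adenomas (1.38%; with it 2, 2.16%). These counts include calls gained as well as calls kept.

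Leaving out 1 array at a time gave 11 to 19 members in adenomas (11 without surrounding replicate 4), 9 to 14 in carcinomas, 11 to 18 in bCat-labelled carcinomas, 0 to 0 in nodules, 2 to 5 in foci (2 without FFPE surrounding replicate 3 or 4) and 0 to 3 in FFPE adenomas (0 without surrounding replicate 1 or adenoma replicate 2, 1 without surrounding replicate 4 or adenoma replicate 5). Between lesions it gave 0 to 2 for adenomas against nodules (2 without adenoma replicate 2), 0 to 2 for carcinomas against adenomas (0 without carcinoma replicate 1 or 4 or adenoma replicate 6, 2 without adenoma replicate 1 or 4), and 0 to 0 for bCat-labelled against unlabelled carcinomas and for FFPE adenomas against foci. The share of all genes called in each of these fits is not given here, so the ranges do not single out the transporters. No result changed sign. Of the 50 called changes of named members, 27 stayed called whichever array of the compared groups was left out. Leaving out arrays of other groups, which also enter the fit, was not read for these counts. Signal near background limits the 17 frozen and 18 FFPE members in the lowest 25% of genes.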
